A study of Mus musculus with 12 samples.

Results

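The scavenger and mannose receptors examined here are 10 named genes through which macrophages take up modified lipoproteins, glycoproteins and dying cells: Msr1, Marco, Cd36, Scarb1, Cd68, Mrc1, Cd163, Mertk, Axl and Lrp1. Members were the rows of the deposited table of expression per gene whose gene name is on that list. Of the 27487 genes in the table, 9 are members, and each had exactly 1 row. The expression of Cd163, the receptor for haemoglobin bound to haptoglobin, was not analysed here. All 9 passed the filter on low counts, as did 16387 genes in all.

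The study asked how neutrophils, and the extracellular traps they release, affect microglia. BV2, an immortalised mouse microglial cell line, was grown in 3 ways, with 4 libraries of polyadenylated RNA each. The CTR group was BV2 cells grown alone. The Neu group was BV2 cells grown together with primary mouse neutrophils. The Neu+NETS group was BV2 cells grown with primary mouse neutrophils given PMA (phorbol 12-myristate 13-acetate), a compound that makes them expel their chromatin as neutrophil extracellular traps (NETs). PMA and NETs came together in that group, so their contributions cannot be told apart. The labels give the tissue as retina although the cells are a line, and BV2 is 1 line, so the values describe that line. Nothing in the labels says that the 4 libraries of a group came from separate cultures. The p-values then reflect only how far these libraries spread, and that spread may be technical.

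Library totals ran from 53512190 to 68316549 estimated counts, of which about 4 units may stand for 1 sequenced fragment, and the common coefficient of variation between libraries of a group was 12.5%. Markers of microglia and macrophages summed to 826 to 879 FPKM (fragments scaled to transcript length and sequencing depth) in CTR, to 939.5 to 969.7 in Neu and to 467 to 481 in Neu+NETS. Of 13 of these tested in Neu against CTR, 5 were called higher, 2 lower and 6 neither, where 26.1% and 27.9% of all genes tested were called higher and lower. Markers of mature neutrophils, 12 of 18 listed, summed to 35.6 to 40.1 FPKM in CTR, 57.0 to 58.7 in Neu and 19.9 to 23.7 in Neu+NETS, and 6 of the 12 were under 1 FPKM in every library. S100a8, among the most abundant transcripts of a mature neutrophil, averaged 0.257, 0.189 and 0.0547 FPKM in CTR, Neu and Neu+NETS and was not tested. Of 9 such markers tested, 4 were called higher and 0 lower in Neu against CTR. These were Il1r2 (0.320 and 8.03 FPKM in CTR and Neu), Lcn2 (0.223 and 0.950), Mmp9 (0.548 and 1.46) and Slpi (26.6 and 35.9), and their part in the members' changes in Neu was not tested. Slpi made up most of the summed neutrophil markers in Neu and also in CTR, where BV2 cells grew alone. Markers of monocytes and other macrophages, 10 of 13 listed, summed to 37.4 to 40.4, 44.7 to 53.4 and 7.91 to 8.71 FPKM in the same order, and most of that sum was Siglec1. In RNA from a whole culture, fewer cells of a type and less RNA per cell cannot be told apart.

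Scavenger receptors are grouped into classes by structure rather than by ancestry. Class A receptors (Msr1, Marco) are trimers with a collagen-like stalk that bind modified lipoproteins and bacteria, class B receptors (Cd36, Scarb1) span the membrane at both ends and bind lipids and lipoproteins, and Cd68 is a glycoprotein of late endosomes. The mannose receptor Mrc1 clears glycoproteins, Mertk and Axl are receptor tyrosine kinases that recognise dying cells through bridging proteins bound to phosphatidylserine, and Lrp1 is a giant endocytic receptor that takes up lipoproteins and protease complexes. In the retina and brain, microglia use such receptors to clear myelin, lipoproteins and dying neurons.

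Promoter sequences of 8 of the 10 named genes, Cd163 among them, were taken from RefSeq (build GRCm38.p6, 250 bases before to 50 after the annotated start, 1 start per gene). There was no entry for Msr1 or Scarb1. Of these promoters, 4 are printed, because they belong to the most abundant receptor (Cd68), to the receptor that moved in opposite directions in the co-cultures (Lrp1), and to receptors that fell by more than 3-fold with NETs and contrast in base content (Mertk and Mrc1). Each reads 5′ to 3′ on the strand of the gene, and capitals mark matches on either strand to 7 motifs. These were the core bound by PU.1 and other ETS factors (GAGGAA), the AP-1 site (TGANTCA), the GC box (GGGCGG), an E-box (CACGTG), a MAF core (TGCTGAC), the TATA box (TATAAA) and the CCAAT box. A match on the opposite strand appears as its reverse complement, and no matches overlap.
Cd68, chr11:69666121-69666420, minus strand: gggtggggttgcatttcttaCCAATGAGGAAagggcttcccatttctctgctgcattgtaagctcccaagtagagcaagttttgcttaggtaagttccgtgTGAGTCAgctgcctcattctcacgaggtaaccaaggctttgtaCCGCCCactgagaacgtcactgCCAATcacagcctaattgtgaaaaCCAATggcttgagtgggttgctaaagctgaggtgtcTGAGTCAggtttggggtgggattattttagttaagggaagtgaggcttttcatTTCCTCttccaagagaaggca
Lrp1, chr10:127621099-127621398, minus strand: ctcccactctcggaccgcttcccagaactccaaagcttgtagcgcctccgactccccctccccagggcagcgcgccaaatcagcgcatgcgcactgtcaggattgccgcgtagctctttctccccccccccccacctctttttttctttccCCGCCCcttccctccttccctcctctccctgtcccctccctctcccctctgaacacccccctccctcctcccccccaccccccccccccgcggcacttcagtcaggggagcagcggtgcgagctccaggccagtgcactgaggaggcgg
Mertk, chr2:128698665-128698964, plus strand: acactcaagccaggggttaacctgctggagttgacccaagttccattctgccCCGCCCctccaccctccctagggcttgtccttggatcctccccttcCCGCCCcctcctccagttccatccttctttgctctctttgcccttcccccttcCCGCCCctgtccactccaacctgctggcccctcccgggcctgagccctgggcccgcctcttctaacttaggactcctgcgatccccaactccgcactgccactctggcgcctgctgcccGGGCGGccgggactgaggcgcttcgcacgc
Mrc1, chr2:14229164-14229463, plus strand: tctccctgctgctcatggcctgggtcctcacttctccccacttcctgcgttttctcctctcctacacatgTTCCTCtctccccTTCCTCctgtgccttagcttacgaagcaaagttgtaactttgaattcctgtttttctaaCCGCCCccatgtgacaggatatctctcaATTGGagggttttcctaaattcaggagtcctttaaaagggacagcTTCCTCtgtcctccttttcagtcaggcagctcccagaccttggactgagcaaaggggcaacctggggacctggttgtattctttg
The Cd68 window holds 8 matches, among them 2 to TGANTCA, whose first bases lie at -149 and -24 from the start, and 2 to GAGGAA, at -225 and 30. The Mrc1 window holds 3 matches to GAGGAA, at -180, -167 and -35. The windows of Lrp1 and Mertk are rich in G and C, at 67.7% and 66.0% against 47.7% for Cd68 and 50.3% for Mrc1, with 16 and 14 CpG against 4 and 3. Lrp1 has 1 GC box and Mertk has 4, and neither has a match to the PU.1 core, the CCAAT box or the TATA box. Over the 8 promoters, GAGGAA occurred in 4 (Marco, Cd68, Mrc1 and Axl), where 28.3% of 32851 RefSeq promoters of the same length hold it. GGGCGG occurred in 6 (35.7% of all promoters), CCAAT in 4 (37.4%) and TGANTCA in 1 (7.81%). None of the 8 held CACGTG (7.15%), TGCTGAC (4.67%) or TATAAA (13.6%). A match is a run of letters and was not tested as a binding site.

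With unstimulated neutrophils the receptors that were called moved in both directions, by small steps and in shares near those of all genes. With NETs nearly all were lower. In Neu against CTR, Lrp1 and Scarb1 rose by 1.59-fold and 1.35-fold, and Mrc1, Marco and Cd68 fell by 1.84-fold, 1.68-fold and 1.07-fold. That is 2 of 9 members called higher, where 26.1% of all genes tested were, and 3 of 9 called lower, where 27.9% were, where a call is an adjusted p below 0.05 in the quasi-likelihood test of edgeR. The members' median log2 fold change was -0.19, against 0.020 over all genes tested. Without CTR replicate 4, Marco and Cd68 no longer passed, and 3 of the 9 members were called.

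In Neu+NETS against CTR, 8 of 9 members fell, where 23.7% of all genes tested were called lower, and 1, Scarb1, rose, where 21.6% were called higher. The falls ran from 1.23-fold (Cd68) to 26.7-fold (Msr1), with a median log2 fold change over the members of -1.72 against 2.1e-04 over all genes tested. The FPKM of the Neu+NETS libraries did not overlap those of the CTR libraries for any of the 9. The share of all genes tested without such overlap was not counted, here or for the ranges given below. In Neu+NETS against Neu, 8 of 9 were lower, where 33.1% of all genes tested were, and 0 were higher, where 29.4% were. The median there was -1.37 against -0.049. Under limma on log2 FPKM, Scarb1 was called higher in this comparison (adjusted p 0.0437), and DESeq2 called 0 higher, as edgeR did. The comparisons with CTR share its 4 libraries, so they are not independent of each other. Markers of microglia were also lower with NETs (13 of 13 tested), as were 7 of 9 mature neutrophil markers, and the part of either in the members' falls was not tested.

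**Figure D1:**
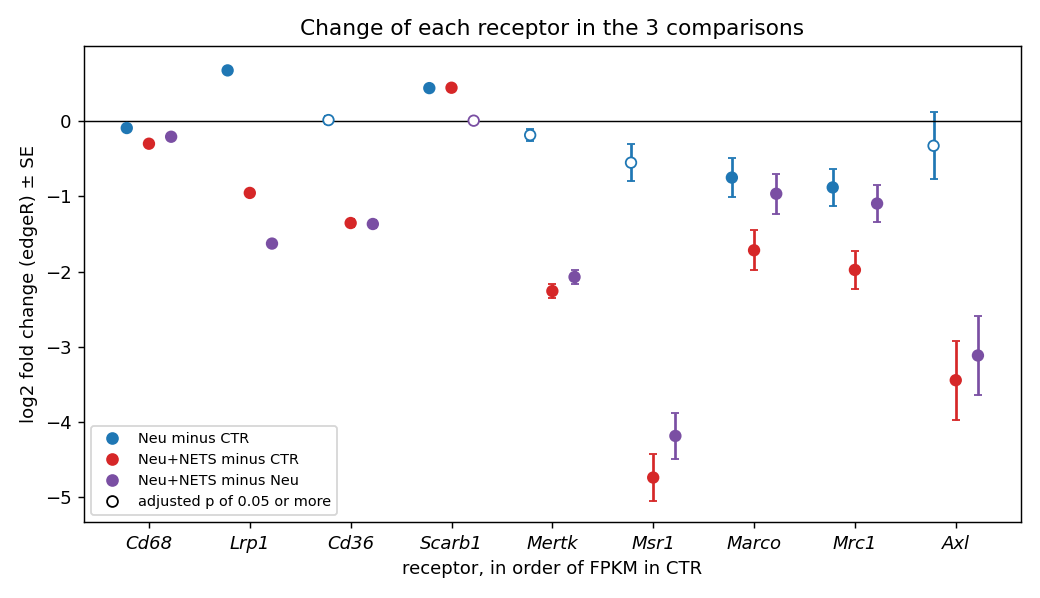
Each point is the edgeR log2 fold change of a receptor (vertical axis, ± SE) in 1 of 3 comparisons, with receptors along the horizontal axis in order of FPKM in CTR, and open points had an adjusted p of 0.05 or more. Scarb1 stays above 0 in both comparisons with CTR, Lrp1 lies at 0.67 for Neu and -0.96 for Neu+NETS, and Msr1 reaches -4.74.

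Msr1, the class A receptor for modified lipoproteins (ENSMUSG00000025044, GRCm39 chromosome 8, 40034726 to 40095714, minus strand), was the member with the largest fitted fold change in edgeR. On log2(FPKM + 1) the order turned, at -1.25 for Msr1 and -1.55 for Mertk in Neu+NETS against CTR. In CTR it stood at 1.42, 1.71, 1.32 and 1.57 FPKM in replicates 1 to 4. In Neu the values were 1.09, 0.854, 1.08 and 0.921 FPKM, and in Neu+NETS 0.117, 0.0232, 0.0491 and 0.0323 FPKM. The 3 groups did not overlap: CTR was highest, Neu lay a little lower and Neu+NETS was close to the limit of detection. The fall with NETs was -4.74 ± 0.306 on the log2 scale (26.7-fold, SE from the 12 libraries, adjusted p 1.5e-09), and against Neu it was -4.19 ± 0.303 (18.2-fold, adjusted p 2.0e-09). The lower level in Neu than in CTR, -0.55 ± 0.242, did not pass (adjusted p 0.0651), although DESeq2 gave 0.0327 and the same test on the 2 groups alone gave 0.0010. It also passed in edgeR on counts divided by 4 (adjusted p 0.0067) and in limma on log2(FPKM + 1) (8.2e-04). The Neu+NETS libraries held 100 estimated counts of Msr1 in all, which would be about 25 fragments at 4 units each, and replicate 1 alone held 52 of them. Without that library the log2 fold change against CTR was -5.37, so the size of the fall is known less well than its direction.

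Marco, the macrophage receptor with collagenous structure and the other class A member (ENSMUSG00000026390, chromosome 1, 120402267 to 120432753, minus strand), was lower in both co-cultures. CTR libraries had 0.943, 1.04, 1.26 and 1.35 FPKM. Neu libraries had 0.694, 0.472, 0.602 and 0.862 FPKM, and Neu+NETS libraries had 0.194, 0.381, 0.384 and 0.486 FPKM. Every CTR library exceeded every co-culture library, and the co-cultures overlapped only through Neu replicate 2 and Neu+NETS replicate 4. The fall was -1.72 ± 0.269 with NETs (3.29-fold, adjusted p 5.0e-05) and -0.75 ± 0.259 with neutrophils alone (1.68-fold, adjusted p 0.0212). Between the co-cultures it was -0.97 ± 0.268 (1.95-fold, adjusted p 0.00469). With 26 to 150 estimated counts per library the smaller change rests on few counts: leaving out CTR replicate 3, CTR replicate 4, Neu replicate 2 or Neu replicate 3 raised its adjusted p to 0.0512, 0.0611, 0.0704 and 0.0522.

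**Figure D2:**
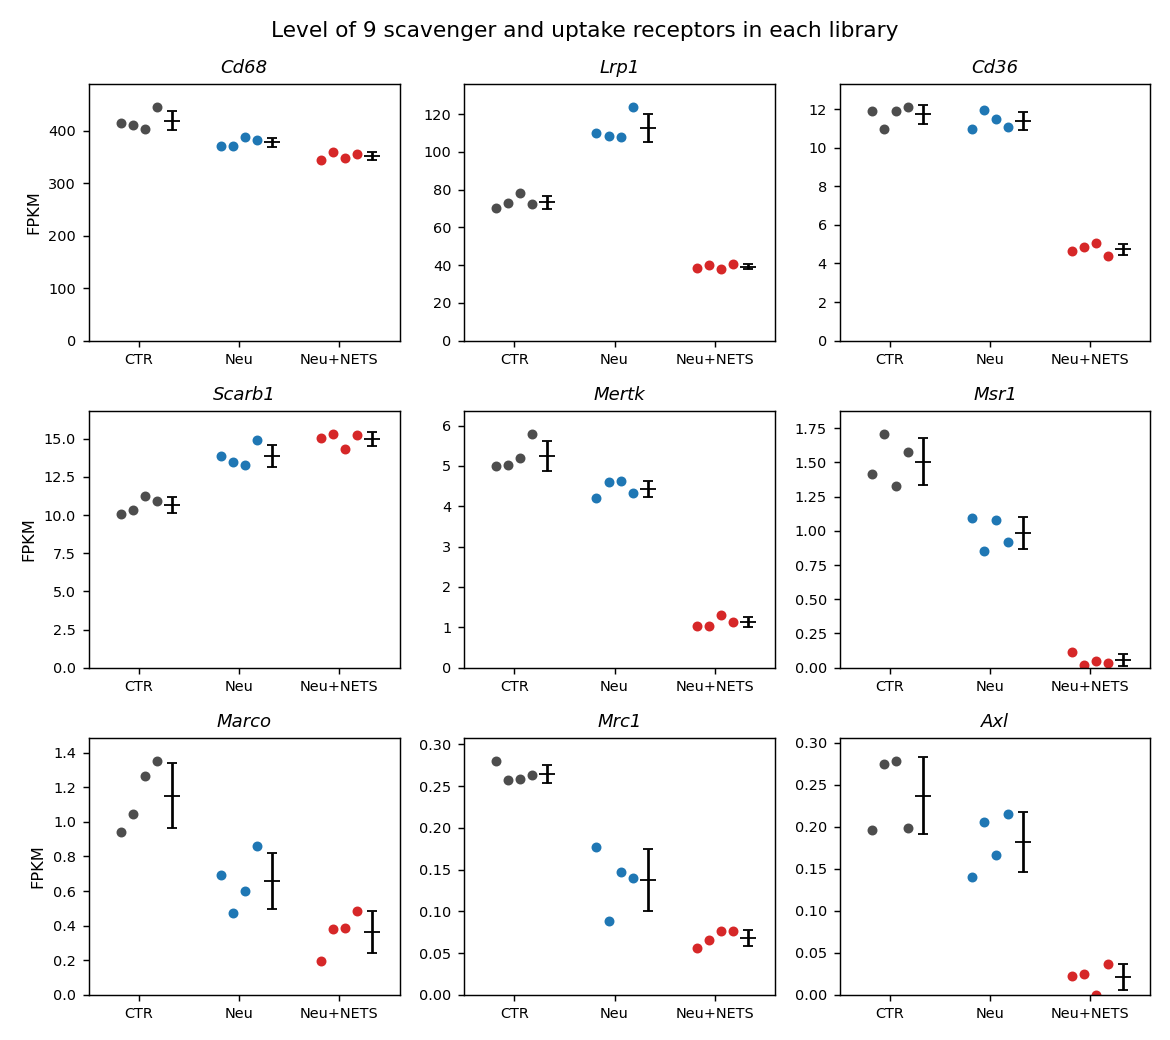
Each panel shows 1 receptor, with FPKM from 0 on the vertical axis and the 3 groups on the horizontal axis. Points are replicates 1 to 4 from left to right, and the bar beside them is the mean ± SD (n = 4). Only the Cd36 and Axl panels show CTR and Neu libraries that overlap, and only the Marco and Scarb1 panels show overlap between the co-cultures.

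Cd36, a class B receptor and long-chain fatty acid translocase that also binds oxidised lipoprotein (ENSMUSG00000002944, chromosome 5, 17986688 to 18093745, minus strand), was lower with NETs and showed no detectable change with neutrophils alone. The CTR libraries held 11.9, 11.0, 11.9 and 12.1 FPKM and the Neu libraries 11.0, 12.0, 11.5 and 11.1 FPKM. Neu+NETS libraries held 4.66, 4.84, 5.06 and 4.38 FPKM. The CTR and Neu ranges overlapped, and all 4 libraries with NETs lay below it. The fall with NETs was -1.36 ± 0.0571 (2.56-fold, adjusted p 6.4e-12), and against Neu -1.37 ± 0.0570 (2.58-fold, adjusted p 1.4e-12). For Neu against CTR the log2 fold change was 0.013 ± 0.0552 (adjusted p 0.865).

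Scarb1, the class B receptor for high-density lipoprotein (ENSMUSG00000037936, chromosome 5, 125354151 to 125418158, minus strand), was the member that rose with both kinds of neutrophil. It had 10.1, 10.3, 11.2 and 10.9 FPKM in CTR. The values were 13.8, 13.5, 13.3 and 14.9 FPKM in Neu, and 15.0, 15.3, 14.3 and 15.3 FPKM in Neu+NETS. All 8 co-culture libraries exceeded all 4 CTR libraries, and the co-cultures overlapped. The log2 fold change was 0.44 ± 0.0383 in Neu (1.35-fold, adjusted p 3.5e-08) and 0.44 ± 0.0383 in Neu+NETS (1.36-fold, adjusted p 5.9e-08). Between the co-cultures it was 0.0050 ± 0.0380 (adjusted p 0.920). On the scale of log2(FPKM + 0.1) that difference was 0.11, on which the median gene also moved by 0.11. In CTR the ranges of the 2 class B receptors overlapped only through Cd36 replicate 2, the other 3 Cd36 libraries being above every Scarb1 library, and in Neu+NETS Scarb1 was at 15.0 ± 0.467 (SD, n = 4) and Cd36 at 4.73 ± 0.287.

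Cd68, also called macrosialin, is a heavily glycosylated protein of late endosomes that resembles the lysosome-associated membrane proteins (ENSMUSG00000018774, chromosome 11, 69555039 to 69556979, minus strand). It was the most abundant member in every library, at 415, 411, 403 and 445 FPKM in CTR. Neu libraries had 370.2, 371, 388 and 382 FPKM, and Neu+NETS libraries 343, 359, 348 and 355 FPKM. The groups did not overlap but were close together, and the changes were the smallest among those that passed. The fall was -0.30 ± 0.0289 with NETs (1.23-fold, adjusted p 2.1e-07), -0.21 ± 0.0289 against Neu (1.16-fold, adjusted p 6.9e-06) and -0.093 ± 0.0289 for Neu against CTR (1.07-fold, adjusted p 0.0120). Without CTR replicate 4, the highest library, the last of these had an adjusted p of 0.0520.

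Mrc1, the macrophage mannose receptor also known as CD206 (ENSMUSG00000026712, chromosome 2, 14234203 to 14336868, plus strand), was present at a low level and fell in steps. CTR libraries had 0.280, 0.257, 0.258 and 0.263 FPKM. Neu libraries had 0.177, 0.0880, 0.147 and 0.139 FPKM, and Neu+NETS libraries 0.0561, 0.0652, 0.0759 and 0.0762 FPKM. No groups overlapped. The fall was -0.88 ± 0.240 in Neu (1.84-fold, adjusted p 0.00493), -1.98 ± 0.252 in Neu+NETS (3.94-fold, adjusted p 5.6e-06) and -1.10 ± 0.251 between the co-cultures (2.14-fold, adjusted p 0.00107). These rest on 97 to 111, 40 to 79 and 25 to 36 estimated counts per library, all above the floor of 12 units (3 fragments if 4 units are 1) under which a level is not resolved. The other mannose receptor family genes and soluble mannose-binding lectins could say little beside it: of 4 with a row, 1 passed the filter on low counts, Mrc2, at a mean of at most 0.0140 FPKM, and it was called in no comparison.

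**Figure D3:**
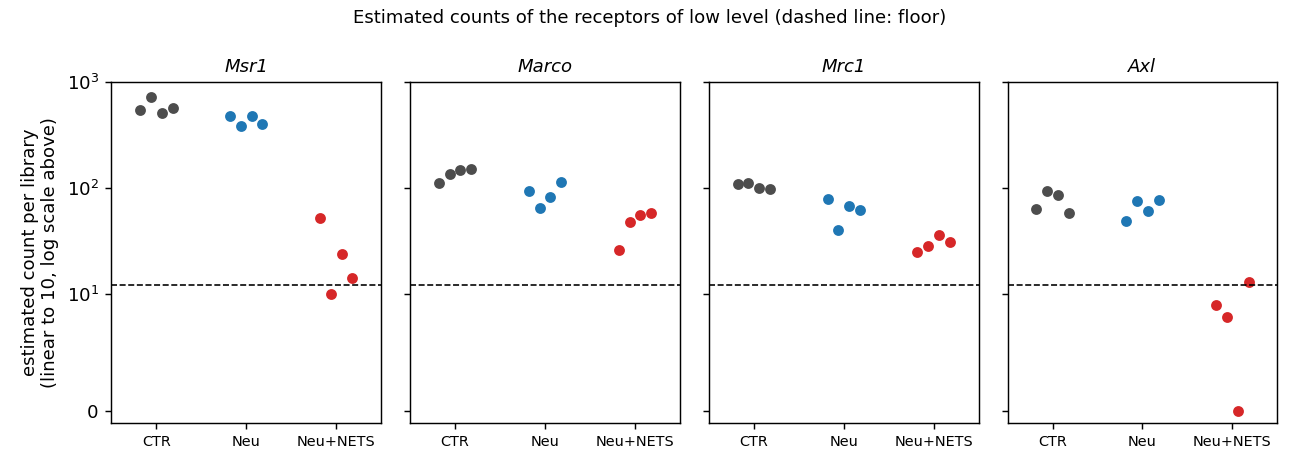
Estimated counts per library (vertical axis, linear to 10 and logarithmic above) of the 4 receptors of lowest level, by group on the horizontal axis, with replicates 1 to 4 from left to right. The dashed line is the floor of 12 units. Of the Neu+NETS libraries, 1 lies under it for Msr1 and 3 for Axl, and none does for Marco or Mrc1.

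Mertk, the receptor tyrosine kinase with which macrophages and retinal pigment epithelium engulf dying cells and shed photoreceptor tips (ENSMUSG00000014361, chromosome 2, 128540876 to 128644814, plus strand), fell sharply with NETs. Its levels were 5.01, 5.01, 5.19 and 5.79 FPKM in CTR. They were 4.20, 4.59, 4.62 and 4.32 FPKM in Neu, and 1.04, 1.03, 1.31 and 1.13 FPKM in Neu+NETS. Neu lay just under CTR without overlap, and Neu+NETS lay far below both. The log2 fold change was -2.26 ± 0.0889 with NETs (4.79-fold, adjusted p 2.6e-12) and -2.07 ± 0.0885 against Neu (4.21-fold, adjusted p 1.9e-12). For Neu against CTR it was -0.19 ± 0.0826, which did not pass (adjusted p 0.0677), and on the 2 groups alone it did (0.0292). The fall in Neu also passed in limma at both pseudocounts (lower adjusted p 0.0067) and in edgeR without Neu+NETS replicate 3.

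Axl, the related kinase (ENSMUSG00000002602, chromosome 7, 25456698 to 25488130, minus strand), was scarce throughout. CTR libraries had 0.196, 0.275, 0.278 and 0.198 FPKM and Neu libraries 0.140, 0.206, 0.167 and 0.216 FPKM. Neu+NETS libraries had 0.0229, 0.0243, 0 and 0.0370 FPKM. CTR and Neu overlapped, and every library with NETs was lower than every other. The fall was -3.44 ± 0.526 with NETs (10.9-fold, adjusted p 3.9e-05) and -3.12 ± 0.523 against Neu (8.67-fold, adjusted p 5.7e-05), and for Neu against CTR the log2 fold change was -0.33 ± 0.445 (adjusted p 0.570). The 4 Neu+NETS libraries held 30 estimated counts in all, which would be about 7.5 fragments, and replicates 1, 2 and 3 were at or under the floor, which for Axl is 0.0342 FPKM per library. The size of this fold is therefore loosely fixed.

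Lrp1, the endocytic receptor for apolipoprotein E, protease complexes and many other ligands (ENSMUSG00000040249, chromosome 10, 127374030 to 127457017, minus strand), was the one member called in opposite directions in the co-cultures. It had 70.1, 73.0, 78.2 and 72.2 FPKM in CTR. Neu libraries had 110.0, 109, 108 and 124 FPKM, and Neu+NETS libraries 38.2, 40.1, 37.9 and 40.4 FPKM. Neu was highest, CTR intermediate and Neu+NETS lowest, with no overlap. The log2 fold change was 0.67 ± 0.0373 in Neu (1.59-fold higher, adjusted p 1.1e-10) and -0.96 ± 0.0376 in Neu+NETS (1.94-fold lower, adjusted p 2.6e-12). The difference between the co-cultures was -1.63 ± 0.0381 (3.09-fold, adjusted p 9.3e-16). A long non-coding RNA on the opposite strand, Gm16217, overlaps the gene at a mean of 1.17 FPKM, and whether counting used strand was not given in the sources used here.

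Levels per transcript length put Cd68 first and Lrp1 second in all 3 groups. In CTR, Cd36 and Scarb1 followed with ranges that overlap, then Mertk, then Msr1 and Marco, which overlap, and last Mrc1 and Axl, which overlap. In Neu the order was the same except that Scarb1 stood above Cd36 without overlap and Axl, with a mean of 0.182 FPKM, above Mrc1, at 0.138, with overlap. In Neu+NETS, Marco stood above Mrc1, Msr1 and Axl, and among those last 3 each range overlapped the next. Msr1 was thus sixth of 9 in CTR and eighth in Neu+NETS.

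The wider families were described from lists chosen with earlier results of these data known, and their counts are to be read against all genes tested. Of those, 26.1% rose and 27.9% fell in Neu and 21.6% rose and 23.7% fell in Neu+NETS, with medians of 0.020 and 2.1e-04. Of 13 other scavenger receptors tested, 3 rose and 3 fell in Neu against CTR (median log2 fold change 0.38), and 0 rose and 8 fell in Neu+NETS against CTR (median -1.49). The counts in Neu are near those shares of all genes. Cd5, a scavenger-receptor cysteine-rich protein, averaged 1.81, 4.69 and 0.517 FPKM in CTR, Neu and Neu+NETS, and both changes from CTR passed (1.43 and -1.84, adjusted p 1.4e-09 and 2.6e-10). Ssc5d and Colec12 were likewise called higher in Neu and lower in Neu+NETS, at 4.26, 6.22 and 1.20 FPKM and at 27.0, 38.0 and 23.7 FPKM. Stab1, a clearance receptor of macrophages and sinusoidal endothelium, fell in both co-cultures, from 5.35 to 3.68 and to 1.97 FPKM. Scarb2, the class B protein of lysosomes, also fell in both, from 15.4 to 9.68 and to 11.8 FPKM, which is a different course from that of Scarb1.

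Among the relatives of Lrp1 and their chaperone, 6 of 13 rose and 4 fell in Neu (median 0.11), and 3 rose and 8 fell in Neu+NETS (median -0.43). Lrpap1, the chaperone that keeps Lrp1 from binding ligands while it folds, moved as Lrp1 did: its means were 48.0 ± 0.574, 88.6 ± 2.71 and 30.1 ± 0.487 FPKM (SD, n = 4). Its log2 fold changes were 0.94 in Neu and -0.72 in Neu+NETS (adjusted p 1.3e-14 and 6.5e-13). The related Lrp4 had the same order of groups, at 2.15, 3.14 and 1.34 FPKM. Lrp5, a co-receptor of Wnt signalling, fell in both co-cultures (16.0, 11.2 and 12.2 FPKM), as did the sorting receptor Sorl1 (19.3, 13.4 and 9.34 FPKM). Lrp8 fell in Neu and rose in Neu+NETS, at 7.26, 5.60 and 8.61 FPKM.

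The partners of Mertk and Axl were described from 17 tested genes of apoptotic cell uptake, of which 6 rose and 5 fell in Neu (median -0.015) and 4 rose and 10 fell in Neu+NETS (median -0.33). Tyro3, the remaining kinase of the family, and the bridging ligand Gas6 had means of at most 0.00675 and 0.00456 FPKM in any group and were not tested. The other ligand, Pros1, averaged 0.163, 0.159 and 0.0824 FPKM and was called in no comparison. Mfge8, which bridges dying cells to integrins, stood at 97.6, 103 and 71.1 FPKM, called higher in Neu and lower in Neu+NETS. Its integrin chains differed: Itgav rose in both co-cultures, by 0.55 on the log2 scale in Neu and 0.078 in Neu+NETS (11.1, 15.6 and 12.1 FPKM), and Itgb5 fell in both co-cultures (36.0, 25.4 and 27.0 FPKM). Of the annexins, Anxa5 rose in both (207, 344 and 304 FPKM) and Anxa1 rose in Neu and fell in Neu+NETS (32.3, 40.3 and 15.8 FPKM). C1qc, a subunit of the complement protein that tags dying cells, fell from 3.35 to 0.999 and to 0.777 FPKM.

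Lamp1, a relative of Cd68 and a major protein of the lysosomal membrane, changed by small steps as Cd68 did, at 314, 273 and 267 FPKM (-0.15 and -0.28 against CTR, adjusted p 4.4e-05 and 4.2e-08). Lamp2 stood at 48.2, 53.6 and 40.7 FPKM, called higher in Neu and lower in Neu+NETS. Of 7 proteases and helpers that can cut such receptors from the cell surface, 5 rose and 1 fell in Neu (median 0.41), and 1 rose and 1 fell in Neu+NETS (median -0.015). Adam17, the main sheddase of Mertk, stood at 29.5, 39.3 and 29.7 FPKM, called higher in Neu and not called in Neu+NETS (adjusted p 0.26). Adam8 rose in both, at 71.6, 177 and 85.0 FPKM. Shedding acts on protein and was not measured.

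**Figure D4:**
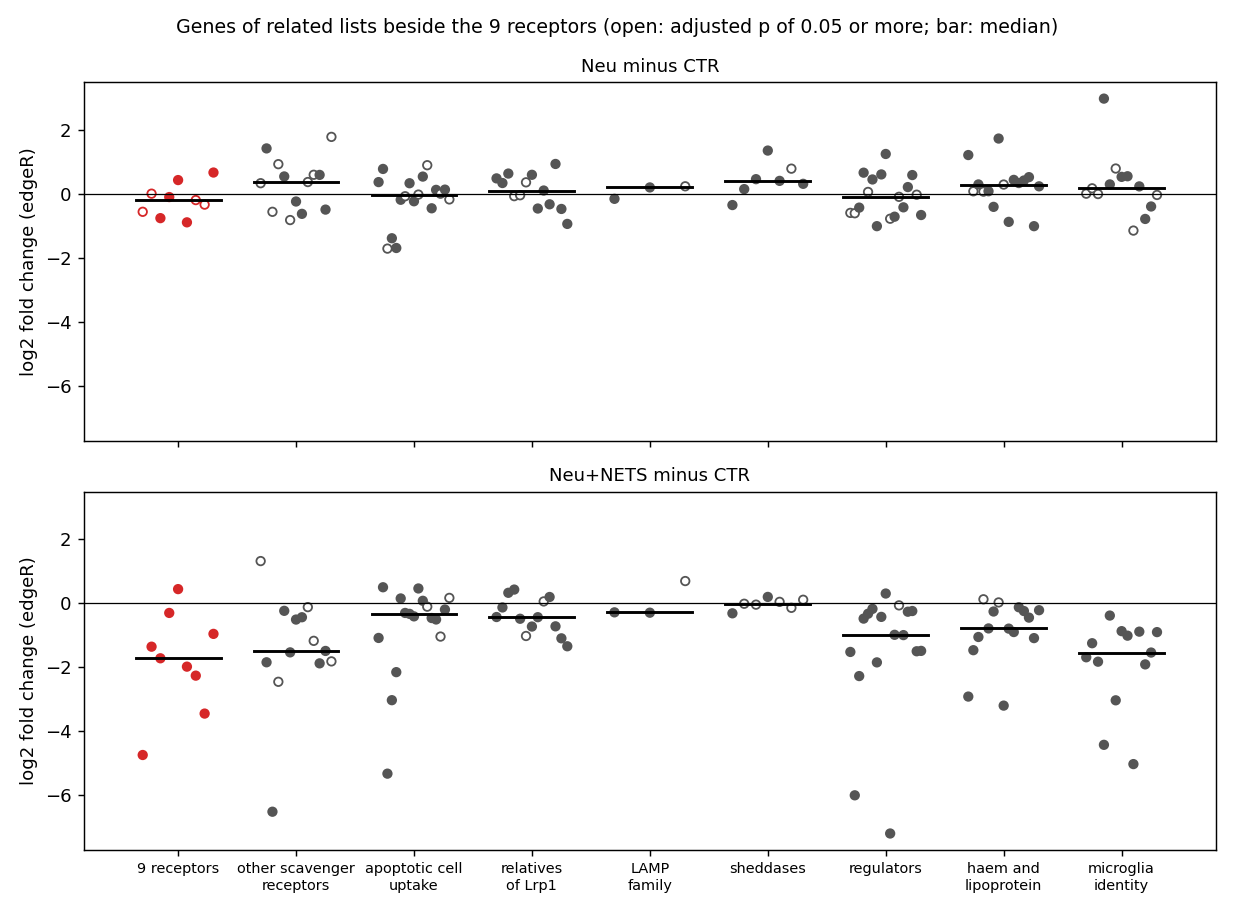
Each point is the edgeR log2 fold change against CTR (vertical axis) of a tested gene, for Neu (upper panel) and Neu+NETS (lower panel), with the 9 receptors in red and the related lists along the horizontal axis. Open points had an adjusted p of 0.05 or more and bars are medians, which are -1.72 for the receptors and -1.54 for the microglial markers in the lower panel. Points below -5 belong to genes at or near 0 counts in Neu+NETS, so their size depends on the fit.

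Transcription factors and nuclear receptors known to drive these genes were lower with NETs in 15 of 17 cases, and 1 was higher (median -0.98), whereas in Neu 6 rose and 5 fell (median -0.085). Spi1, which encodes PU.1, averaged 96.7, 69.8 and 50.2 FPKM, lower in both (-0.41 and -0.99, adjusted p 8.9e-09 and 3.1e-13). Nr1h3, the liver X receptor alpha, fell in both from 11.8 to 5.64 and to 3.37 FPKM, and its partner Rxra from 27.1 to 16.0 and to 14.1 FPKM. Ppard was the exception that rose in both, at 4.93, 11.3 and 6.29 FPKM. Whether any of these acts on a receptor was not tested.

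Of 15 genes tested that handle the cargo of these receptors, 9 rose and 3 fell in Neu (median 0.30), where 26.1% and 27.9% of all genes did. In Neu+NETS 0 rose and 13 fell (median -0.78), where 21.6% and 23.7% of all genes did. Hmox1, which degrades haem, averaged 116, 372 and 122 FPKM, a log2 fold change of 1.73 in Neu (adjusted p 7.3e-16) and of 0.027 in Neu+NETS (adjusted p 0.60). Apoe, a ligand of Lrp1, averaged 528, 625 and 263 FPKM, and Lpl, which helps lipoproteins to bind Lrp1, 79.3, 104 and 44.0 FPKM, each called higher in Neu and lower in Neu+NETS. Abca1, the cholesterol exporter, had the same order of groups, at 2.52, 5.64 and 0.346 FPKM. Lipa, the lysosomal lipase, fell in both, from 45.1 to 23.8 and to 27.0 FPKM.

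The genes most like each receptor were sought among 8120 tested genes with a mean of at least 5 FPKM in a group, by the root mean square difference of centred log2 values over the 12 libraries. These are descriptions of likeness, from libraries that share their groups. Nearest to Lrp1 were Fam20c (0.0566), Lgals3 (0.0697) and Itgam (0.0726), and Lgals3, the lectin galectin-3, averaged 371, 599 and 219 FPKM. Nearest to Mertk were Cd84 (0.110), Slfn2 (0.110) and Pld4 (0.128). Nearest to Cd36 were Cyth1 (0.0697), Idh1 (0.0702) and Gpnmb (0.0828), the last at 989.7, 975 and 390.3 FPKM. Nearest to Scarb1 were Zfand2a (0.0485), Sgsm1 (0.0536) and Anxa7 (0.0543), and nearest to Cd68 were Irag2 (0.0351), Rad21 (0.0405) and Ubl3 (0.0409). Mrc1 and Marco had the same nearest gene, Nr1h3, at 0.178 and 0.286. By this measure Msr1 and Axl had no close neighbour, since their nearest, Acod1 and Gpr183, differed by 0.697 and 0.605. In Neu+NETS, Msr1 and Axl held 10 to 52 and 0 to 13 estimated counts per library. The part of counting error in these distances was not tested.

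Annotation terms in the deposited table describe the 9 receptors. These were chosen as uptake receptors, so shared terms of uptake restate that choice. Receptor-mediated endocytosis is attached to 5 of them (Msr1, Cd36, Marco, Mrc1 and Lrp1) and to 46 of the 16387 genes tested. The phagosome pathway of KEGG also holds 5 (Msr1, Cd36, Marco, Scarb1 and Mrc1) and 115 tested genes. Apoptotic cell clearance is attached to Cd36, Marco, Mertk and Axl, and to 16 tested genes. All 4 of these receptors fell with NETs, but so did 8 of the 9 members, where 23.7% of all genes tested were called lower. The other genes with that term were not examined as a set. Binding of amyloid-beta is attached to Msr1, Cd36, Marco and Scarb1, and to 40 tested genes, and in that set Scarb1 rose where the other 3 fell.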

How the data were processed

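One table of the whole series was used, with 27487 genes and a column of estimated counts and of FPKM for each of the 12 libraries, and 0 columns of per-sample values were unmatched. Deposited estimated counts are whole numbers whose totals differ between libraries, and they were used as they stand. The FPKM columns are the authors' own, named so in the header. HISAT2 2.0.4, StringTie 1.3.4d, edgeR and build GRCm39 are listed, without roles, in the submitters' processing notes. What annotation, strand setting or filter the authors used was not given in the sources used here. Of counts from 2 to 41, 33.0% were multiples of 4, where an even spread gives 25%, so about 4 units may stand for 1 fragment. That was not tested further, and a floor of 3 fragments was set at 12 units on this assumption. Floors cover counting error only.

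Groups and replicate numbers came from the labels. After filterByExpr and TMM scaling (factors 0.970 to 1.03), 1 quasi-likelihood model with a mean per group was fitted to the 12 libraries in edgeR 4.0.16 (R 4.3.3). Tests were two-sided, with Benjamini-Hochberg adjustment over the 16387 genes tested and a threshold of 0.05. Each SE was obtained from the fold change and its F statistic. Alternatives were DESeq2 1.42.0, limma 3.58.1 on log2(FPKM + 1) and log2(FPKM + 0.1) for genes of at least 0.5 FPKM in at least 4 libraries, RLE or no scaling factors, no filter, the 2 groups compared alone, a replicate block, counts divided by 4, and leaving out each library. Ensembl identifiers and positions are those of the deposited table (GRCm39), and promoters are those of RefSeq (GRCm38.p6).

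The members and gene lists were chosen with earlier results of these data known. The text names all members, from each list up to 4 called genes per comparison with the smallest adjusted p and untested entries where a result turns on them, and the 3 genes nearest each member. Mrc2, Pros1 and Itgb5 are named outside that rule, for their known role, after their values were seen. Some genes that the rule would name are not reported here.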

Additional observations from a re-analysis of the deposited data

Results flagged for a closer look

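Lrp1 drew attention for 2 reasons. In Neu replicate 4 its level, 123.8 FPKM, stood apart from the other 3 Neu libraries: the gap to the nearest of them was 0.881 of the range of the group, above Dixon's 95% critical value for 4 samples. Of the 27 groups of 4 values examined, 1 stood out in this way, and chance alone gives about 1 in 20. Without that library the log2 fold change of Lrp1 was 0.64 in Neu against CTR and -1.59 in Neu+NETS against Neu, and both passed. Lrp1 was also called in opposite directions in the co-cultures, with a log2 fold change of -1.63 between them. That value comes from the same libraries and is no separate evidence of the difference.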

How the results depend on the processing

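Of 555 values of single members recomputed under the alternatives, 528 kept their direction and their side of the threshold, 13 newly passed, 5 no longer passed and 9 changed sign. The falls of 8 members with NETs against CTR, the rise of Scarb1 there and the 8 falls against Neu passed in every alternative in which the gene was tested, and Mrc1 and Axl were below the FPKM minimum of limma. Sizes of low genes are smaller with limma on log2(FPKM + 1), where Msr1 was -1.25 against CTR, since the pseudocount is of the order of its level. All 9 changes of sign were of values that were called in neither direction. Cd36 in Neu against CTR was -0.041 with limma on log2(FPKM + 1), -0.044 with a pseudocount of 0.1, -0.0030 with library size only, and between -0.015 and 0.036 when single libraries were left out. Scarb1 in Neu+NETS against Neu was -0.0088 with counts divided by 4 and between -0.0097 and 0.029 when single libraries were left out.

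In Neu against CTR, 5 members were called, with 3 to 6 when single libraries were left out. The number called lower was 3, with 1 to 4 when single libraries were left out. It was 5 on the 2 groups alone, where Msr1 (adjusted p 0.0010) and Mertk (0.0292) also passed. It was 4 with DESeq2, with limma at pseudocounts of 1 and 0.1, and with counts divided by 4. Msr1 passed in each of these (adjusted p 0.0327, 8.2e-04, 0.0212 and 0.0067). In limma, which did not test Mrc1, Mertk passed as well at both pseudocounts (lower adjusted p 0.0067). The cause was not tested. The number called higher in Neu+NETS against Neu was 0, and 1 with limma at either pseudocount, where the added gene was Scarb1 (adjusted p 0.0437 and 0.0452). On those scales the median of all genes lay higher too, by 0.083 and 0.11. Leaving out Neu+NETS replicate 1 or 2 made Msr1 pass in Neu against CTR (adjusted p 0.0043 and 0.0328), and leaving out Neu+NETS replicate 3 did so for Mertk (0.0394). Of all called genes, the share higher was 48.3%, 47.6% and 47.1% in the 3 comparisons (Neu and Neu+NETS against CTR, then Neu+NETS against Neu), 40.2%, 57.9% and 58.4% with limma on log2(FPKM + 1), and 46.6%, 56.7% and 52.7% with library size only. Same-numbered libraries did not deviate together (12 correlations from -0.055 to 0.043), so no pairing by number was seen. Such correlations cannot exclude that a number marks a shared culture or day, which the labels do not say. The replicate block left 5, 9 and 8 members called, as without it. Depth limits Msr1, Marco, Mrc1 and Axl, each at no more than 734 estimated counts per library.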
